A study of Homo sapiens with 8 samples.

Results

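The nuclear genes for subunits of the respiratory chain and ATP synthase were followed in 8 poly(A)-selected mRNA libraries of HEK293T, a cell line from human embryonic kidney. Members were chosen by symbol: the NDUFA, NDUFB, NDUFC, NDUFS and NDUFV genes, the UQCR genes and CYC1, the subunits named COX4 to COX8, SDHA to SDHD, and the ATP5F1, ATP5M and ATP5P genes. This gave 88 of the 60652 gene rows, after 189 pseudogenes, 6 antisense or divergent RNAs and 2 read-through pairs with such symbols were left out. Of the 88, 37 belonged to complex I, 4 to complex II, 10 to complex III, 19 to complex IV and 18 to complex V, and 81 passed the filter on low counts.

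The cells carried a TRE3G-GFP reporter and grew in medium with 10% FBS. Plasmids for an activator and for its guide were transfected, and cells with mCherry and BFP were collected by sorting after 2 days. The 4 groups had 2 libraries each: dCasMINI-VPR with sgTet, dCasMINI-VPR with the non-targeting sgNT, dCas12a-VPR with crTet, and dCas12a-VPR with the non-targeting crNT. dCasMINI is a small Cas protein and dCas12a a larger one, both without cutting activity, and VPR is a fusion of activation domains that both carry. All groups, controls included, were transfected and sorted, and all come from 1 reporter line. The labels do not say whether replicates were separate transfections, so p-values measure the spread between these libraries, which may be technical.

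As background, complexes I and II pass electrons from NADH and succinate to ubiquinone, complex III passes them to cytochrome c, and complex IV passes them to oxygen. Complexes I, III and IV pump protons across the inner mitochondrial membrane, and complex V, the ATP synthase, uses the returning protons to make ATP. Complex II is encoded wholly in the nucleus, whereas the others combine nuclear subunits with a few encoded in mitochondrial DNA. NRF1, GABP and YY1 are transcription factors known to act at promoters of many of the nuclear genes.

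The promoters give a feature that the members' names did not select for, though most windows held none of the motifs below. RefSeq promoter windows (GRCh38.p14, 250 bases before to 50 bases after the start) were matched for 69 of the 88 members. The NRF1 motif GCATGCGC, searched on both strands, was found in 13 of the 69 (18.8%), against 4.25% of 15319 protein-coding promoters. The YY1 motif AAGATGGCG was found in 8 (11.6%), against 2.80%, and the GABP motif CCGGAAGTG in 4 (5.80%), against 3.58%. At least 1 of the motifs was in 21 of the 69 members' windows (30.4%), against 9.99% of protein-coding windows, and no difference was tested. NRF1 matches were in 5 of 20 windows of members called in a guide comparison and in 8 of 45 windows of tested members that were not called, so the motif was present on both sides. The windows below, 30 bases each, hold the matches found in the called members. Capitals mark the matched letters, which are a description and not a binding site.
NDUFS6, NRF1, chr5:1801350-1801379, plus strand: ccagaagccgtGCGCATGCgttagcgctaa
NDUFB4, NRF1 on both strands, chr3:120596167-120596196, plus strand: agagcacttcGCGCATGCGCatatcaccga
COX6A1, NRF1, chr12:120437884-120437913, plus strand: ggagggcacacGCATGCGCacgaaggaaac
COX6A1, NRF1, chr12:120437928-120437957, plus strand: ggaggtgcagaGCGCATGCtctctcttgcc
ATP5MC2, NRF1, chr12:53676105-53676134, minus strand: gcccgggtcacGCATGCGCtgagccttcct
ATP5PF, NRF1, chr21:25735156-25735185, minus strand: ccactcaaagaGCGCATGCgtacagagcaa
ATP5PF, YY1, chr21:25735092-25735121, minus strand: aggcgaagaaAAGATGGCGgaggctgtgcc
ATP5MK, GABP, chr10:103396616-103396645, minus strand: tgcaattcttCCGGAAGTGtgggcgggctc

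UQCRQ, which had the smallest adjusted p among members with crTet, held none of the motifs in its window. The part of that window outside annotated exons, 250 to 129 bases before the start (chr5:132866392-132866513, plus strand), is shown for contrast with the matched promoters.
UQCRQ: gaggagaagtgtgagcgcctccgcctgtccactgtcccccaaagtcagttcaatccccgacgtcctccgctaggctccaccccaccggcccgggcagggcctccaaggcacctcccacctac

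Reads in genes ranged between 17474404 and 21081942 per library, and at these depths 3 reads are 0.142 to 0.172 CPM, the usual scale of reads relative to the total in a library. The reporter checked the labels: EGFP had 920 and 1094 CPM with sgTet against 3.23 and 4.42 CPM with sgNT, and 804 and 708 CPM with crTet against 2.77 and 2.66 CPM with crNT. All 8 HEK293 markers were detected, and IRS4 alone had 811 to 1031 CPM. Their sums were 2445 and 2446 CPM with sgTet against 2436 and 2497 CPM with sgNT, and 2448 and 2378 CPM with crTet against 1990 and 2080 CPM with crNT. With crTet 3 of the 8 were called higher and 0 lower, against 3.56% of all genes higher and 2.75% lower. With sgTet 1 was higher and 0 lower, against 0.47% of all genes higher and 0.325% lower. Of 12 markers of other cells, 10 stayed under 1 CPM in every library and 3 (PTPRC, HBB, UMOD) had no read. The 2 others were COL1A1 (32.4 to 44.4 CPM) and GFAP (2.71 to 5.01 CPM), with 0 calls in either guide comparison. Unmapped reads were 9.55% and 9.37% in the crTet libraries against 14.4% and 12.7% in the crNT libraries, and 8.32% to 9.62% in the dCasMINI-VPR libraries.

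Within each complex, levels differed widely between subunits. Per kilobase of mRNA, complex V was led by ATP5F1B (776 CPM per kb) and ATP5F1A (311 CPM per kb), the beta and alpha subunits of the catalytic head. Complex IV was led by COX4I1 (606 CPM per kb) and COX7C (574 CPM per kb), complex III by UQCRH, the hinge protein (544 CPM per kb), and CYC1, cytochrome c1 (224 CPM per kb). In complex I the accessory subunits NDUFS5 (432 CPM per kb) and NDUFB10 (327 CPM per kb) were highest. Lengths are medians over annotated transcripts paired with a RefSeq mRNA, or the joined exons where there is none. They are rough for genes whose annotated transcripts differ much in length.

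In complex II, the membrane anchor SDHC had 463 CPM per kb and the iron-sulfur subunit SDHB 132 CPM per kb. The other anchor, SDHD, had 67.1 CPM per kb and the catalytic flavoprotein SDHA 0.856 CPM per kb. SDHC was given a length of 460 bases and SDHB of 1153, and before division by length they averaged 213 and 152 CPM. SDHA and SDHB pair in the enzyme. In the annotation 4 pseudogenes carry the SDHA name, and reads that map to several places are not in the gene counts. Their part in the low SDHA count was not tested. The lowest tested members elsewhere were NDUFV2 (0.364 CPM per kb), a core iron-sulfur subunit of complex I, UQCRHL (2.84 CPM per kb), COX6B2 (0.313 CPM per kb) and ATP5ME (2.40 CPM per kb).

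Isoforms known from other tissues were near zero. The heart and muscle forms COX6A2 and COX7A1 had 0 and 12 reads over the 8 libraries, the lung form COX4I2 had 1 read, and the testis forms COX7B2 and COX8C had none. A count of 0 allows up to 0.142 to 0.172 CPM in a library. The common counterparts had more reads: COX4I1 averaged 431 CPM, COX7B 206 CPM, COX7A2 171 CPM and COX6A1 10.5 CPM over the 8 libraries. COX6A1 has 7 named pseudogenes and a gene that overlaps it on its own strand, as NDUFB8, NDUFV2 and NDUFA13 have, and whether reads are lost to these was not tested. NDUFA4 averaged 176 CPM against 0.889 CPM for NDUFA4L2. UQCRH averaged 329 CPM against 6.20 CPM for UQCRHL, a near copy, so reads of the pair cannot be fully told apart. The members that failed the filter were COX7B2, COX6A2, COX8C, COX4I2, COX7A1, ATP5MGL (1 read) and NDUFA7 (50 reads).

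Some counts depended strongly on the column read. The count column used here ignores strand, and a read in an overlap of 2 genes is then ambiguous and counted for neither (10.4% to 11.2% of reads). The 2 strand columns of the same files, summed, give such a read to both genes where these lie on opposite strands. Between the strand columns reads split nearly evenly, as for a kit that does not mark strand, so partner genes cannot be separated either way. The sum exceeded the used column at least 1.5 times for 11 of the 81 tested members (13.6%), against 12.3% of all 16606 genes tested. ATP5ME, the e subunit of ATP synthase, had 139 reads against 9513 in the sum, and NDUFS7, a core complex I subunit, had 329 against 16104. UQCR10 differed by 8.39 times, NDUFA2 by 8.33, NDUFB2 by 5.16, ATP5PD by 5.08, UQCRQ by 4.54, COX6C by 2.62, ATP5PF by 2.50, NDUFB9 by 1.92 and UQCRB by 1.78 times. Of these 11, UQCR10 and COX6C overlap no exon of another gene in GENCODE release 29, and the cause of their gap was not tested. NDUFA1 and NDUFB11 overlap opposite-strand genes over 44.5% and 44.9% of their exons and had ratios of 1.006 and 1.0007. SDHA, NDUFV2 and NDUFB8 were low in both ways of counting.

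**Figure D1:**
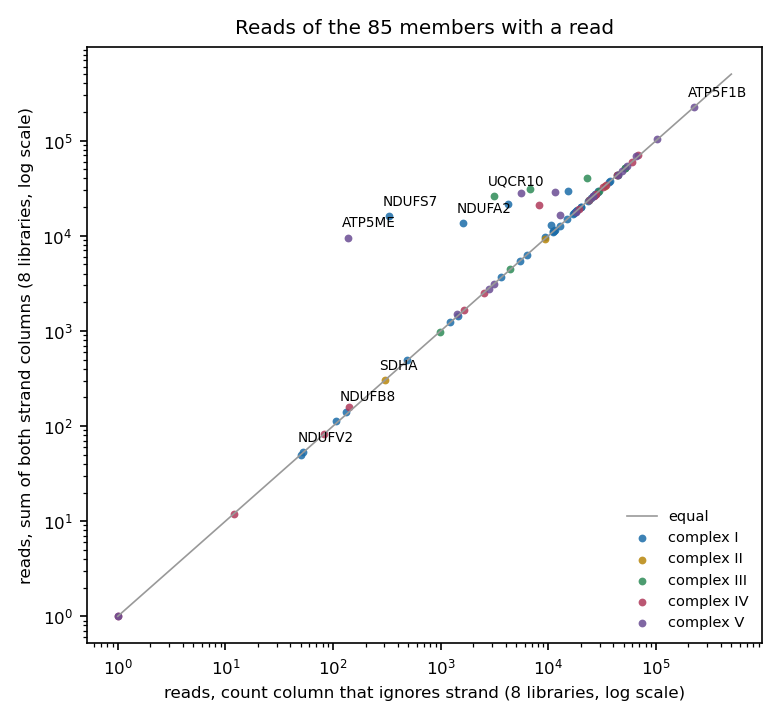
Reads of the 85 members with a read, summed over 8 libraries (both axes log scale): the count column that ignores strand on x, the sum of both strand columns on y, colours by complex, grey line for equal values. The 11 members with a ratio of 1.5 or more stand above the line, ATP5ME farthest at 68.4 times, while SDHA, NDUFV2 and NDUFB8 lie on it.

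All members together took a steady part of each library: 1.12% and 1.24% of gene reads with sgTet against 1.18% and 1.16% with sgNT, and 1.12% and 1.25% with crTet against 1.12% and 1.14% with crNT. Both pairs of groups overlap. By complex, the libraries of each guide pair overlapped with 1 exception. Complex I with dCas12a-VPR did not overlap, at 0.307% and 0.345% with crTet against 0.291% and 0.298% with crNT. The summed shares rest on the abundant members, and the fold changes below treat each gene alike.

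Replicates of a group differed across many members at once. With crTet, 73 of 81 members were lower in replicate 1 than in replicate 2 (median log2 difference of -0.20, against -0.0004 for all genes). With sgTet, 52 of 81 were lower in replicate 1 (median of -0.11, against 0.02 for all genes), and NDUFA1, a complex I subunit, had 71.5 and 145 CPM. UQCRH had 246 and 357 CPM and COX5B 162 and 240 CPM in the same 2 libraries. The sgTet replicate 1 library was also the one with the highest share of mitochondrially encoded mRNAs, 3.96% against 2.41% to 3.33% in the other 7. The part of these library differences in the results below was not tested beyond leaving each library out.

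**Figure D2:**
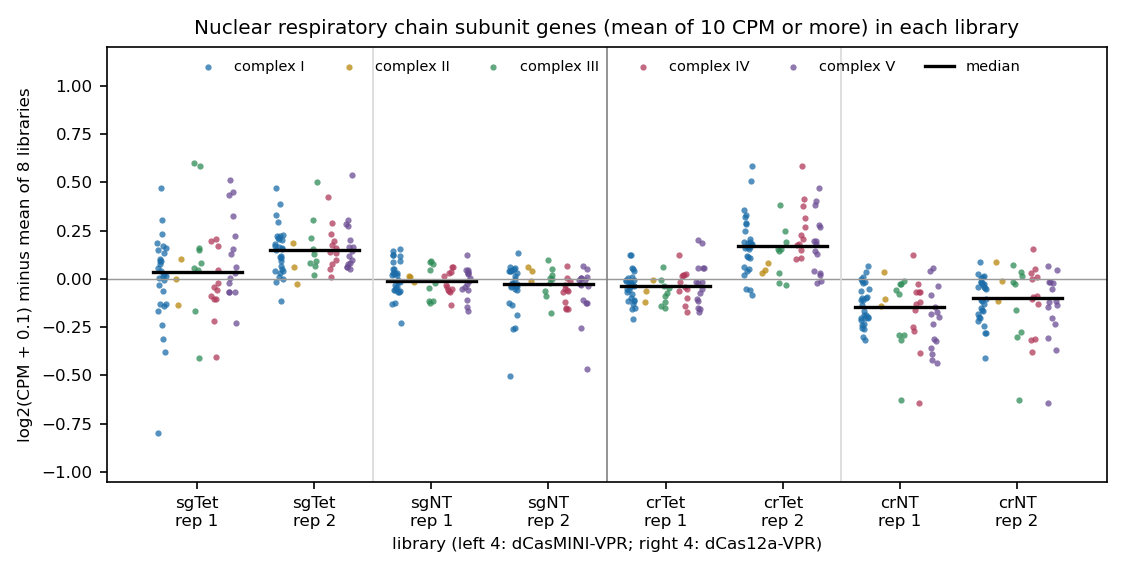
Each point is 1 of 68 members with a mean of at least 10 CPM, as log2(CPM + 0.1) minus its mean over the 8 libraries (y), by library (x, dCasMINI-VPR on the left), with colours by complex and black lines for medians. Medians were highest in crTet replicate 2 (0.17) and sgTet replicate 2 (0.15), and lowest in crNT replicate 1 (-0.15) and crNT replicate 2 (-0.10).

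The guide comparison with dCasMINI-VPR asks which genes other than the reporter differed with the Tet guide. Higher with sgTet than with sgNT were 6 of 81 members (7.41%) and lower 0, against 0.47% of all genes higher and 0.325% lower (edgeR quasi-likelihood test, Benjamini-Hochberg adjusted p under 0.05 over 16606 genes). At an unadjusted p under 0.05 there were 23 of 81 members in either direction, against 2046 of 16606 genes. The 6 were ATP5MF and ATP5PF of ATP synthase, UQCRQ and UQCR10 of complex III, and NDUFA3 and NDUFB8 of complex I. The median log2 fold change over the 81 was 0.10, against 0.0003 over all genes, and 63 of 81 were positive. In a bulk library, fewer cells with an mRNA and less of it per cell cannot be told apart.

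ATP5MF, the f subunit in the membrane part of ATP synthase (hg38 chr7:99448475-99466331, minus strand), had 26.9 and 27.3 CPM with sgTet against 16.8 and 13.6 CPM with sgNT. The groups did not overlap, and the log2 fold change was 0.83 ± 0.14 (SE, n = 2 against 2, edgeR adjusted p = 0.000974). Of the 6, it had the smallest adjusted p. The genes that overlap it (8.6% of its exons, PTCD1 and its read-through) lie on its own strand, and such reads are left out in both ways of counting.

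UQCRQ, a small subunit of complex III on chromosome 5, had 62.5 and 58.5 CPM with sgTet against 38.02 and 39.5 CPM with sgNT. Its log2 fold change was 0.64 ± 0.11 (SE, edgeR adjusted p = 0.00148). With the strand columns summed, it had 171 and 191 CPM with sgTet against 162 and 169 CPM with sgNT, and the call ended (log2 fold change 0.18, adjusted p = 0.345).

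ATP5PF, coupling factor 6 of the stalk of ATP synthase, starts beside GABPA on the opposite strand of chromosome 21. It had 96.2 and 86.0 CPM with sgTet against 65.8 and 65.2 CPM with sgNT, and a log2 fold change of 0.47 ± 0.10 (SE, edgeR adjusted p = 0.00605). Its strand sums overlapped between the groups, 157 and 167 CPM with sgTet against 160 and 162 CPM with sgNT, and the call ended (adjusted p = 0.803). GABPA itself had 79.8 to 110 CPM over the 8 libraries.

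UQCR10, another small complex III subunit, had 28.95 and 23.8 CPM with sgTet against 17.7 and 17.0 CPM with sgNT (log2 fold change 0.60 ± 0.14, SE, edgeR adjusted p = 0.0285). Its strand sums were 125 and 155 CPM with sgTet against 145 and 148 CPM with sgNT, and the log2 fold change turned to -0.02 (adjusted p = 0.954). Thus 3 of the 6 calls were of genes whose count differed at least 1.5 times between the columns, and those 3 calls ended with strand sums.

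NDUFA3, an accessory subunit of complex I on chromosome 19, had 64.1 and 75.1 CPM with sgTet against 52.4 and 47.8 CPM with sgNT. The log2 fold change was 0.47 ± 0.10 (SE, edgeR adjusted p = 0.0147), and it stayed called with strand sums (0.44, adjusted p = 0.0324). NDUFB8, also an accessory subunit, rested on few reads, 38 and 36 with sgTet against 5 and 2 with sgNT. Its fitted log2 fold change was 3.24 ± 0.71 (SE, edgeR adjusted p = 0.0162), at a level of 1.90 and 1.74 CPM with sgTet against 0.26 and 0.11 CPM with sgNT. With strand sums ATP5ME (0.49, adjusted p = 0.0374) and ATP5MK (0.41, adjusted p = 0.0216), a small subunit of the membrane part, were called as well.

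Fewer members passed the test when a library of these groups other than sgTet replicate 2 was left out. Without sgNT replicate 1 only ATP5MF stayed called (0.204% of all genes higher), and without sgNT replicate 2 only UQCRQ (0.182%). Several lost calls kept their size: ATP5PF had log2 fold changes of 0.48 and 0.47 in these 2 fits, and UQCR10 of 0.63 and 0.58. Without sgTet replicate 1 the count was 4 (0.386% of all genes). Without sgTet replicate 2, 13 members were higher and 6 lower (ATP5MC3, COX5B, NDUFA1, NDUFB3, NDUFV1, UQCRH), while 4.04% of all genes were higher and 4.30% lower in that fit. The median fold change was 0.05 without sgTet replicate 2 and 0.16 without sgTet replicate 1. The largest fitted fall was that of NDUFV2 (log2 -1.67 ± 1.08, SE, not called), which had 53 reads in all libraries.

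With dCas12a-VPR, 22 of 81 members (27.2%) were higher with crTet than with crNT and 0 lower, against 3.56% of all genes higher and 2.75% lower (edgeR, adjusted p under 0.05). Complex V had 8 of its 17 tested members called, complex I 9 of 36, complex IV 3 of 14, complex III 2 of 10 and complex II 0 of 4. The median log2 fold change was 0.17, against 0.01 over all genes, with 0.28 in complex V, 0.19 in complex IV, 0.16 in complex I, 0.12 in complex III and 0.09 in complex II. Positive were 68 of 81.

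**Figure D3:**
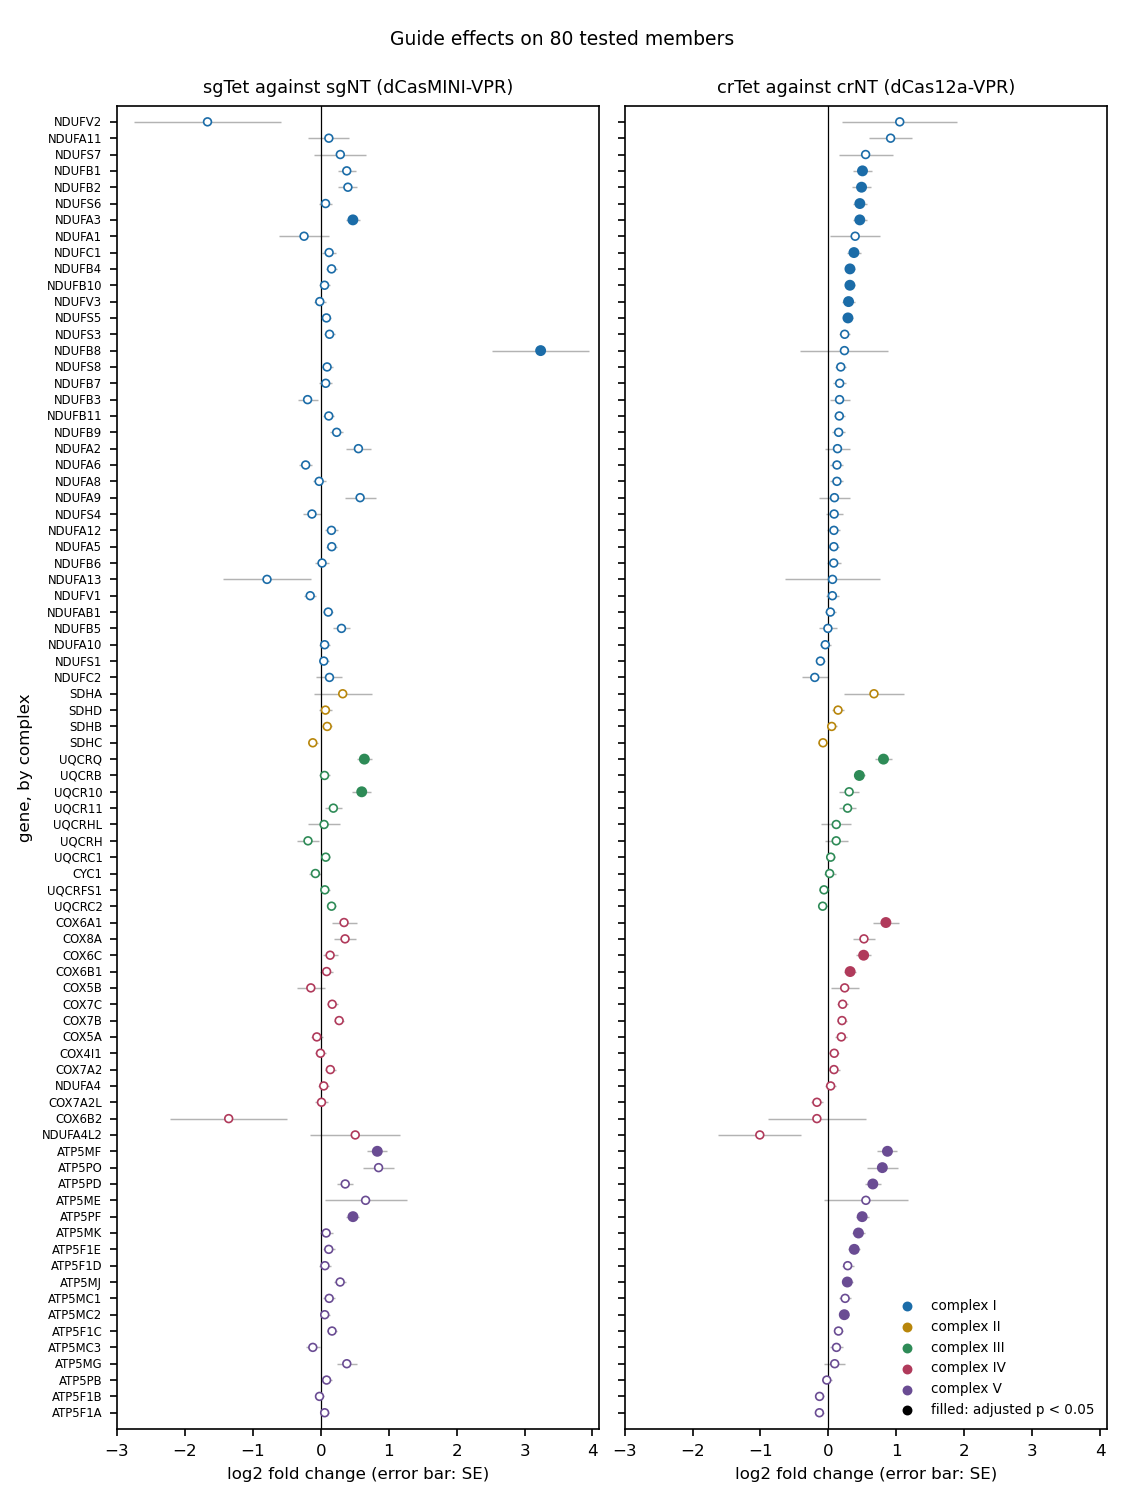
Log2 fold change (x, error bars SE) of 80 tested members (y, grouped by complex), sgTet against sgNT on the left and crTet against crNT on the right. Filled points passed the adjusted p of 0.05: 6 on the left and 22 on the right, all to the right of 0.

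Among the complex V members called, ATP5MF had 21.5 and 26.1 CPM with crTet against 14.04 and 12.02 CPM with crNT. Its log2 fold change was 0.87 ± 0.15 (SE, edgeR adjusted p = 0.000315). ATP5PD, the d subunit of the stalk, had 39.7 and 45.7 CPM with crTet against 26.3 and 28.0 CPM with crNT. The groups stood apart for both genes, and the log2 fold change of ATP5PD was 0.65 ± 0.12 (SE, edgeR adjusted p = 0.000716). ATP5PF had 70.4 and 85.6 CPM with crTet against 55.4 and 55.1 CPM with crNT (log2 fold change 0.50 ± 0.10, SE, edgeR adjusted p = 0.00144). Counted with strand sums, ATP5PD (0.21, adjusted p = 0.109) and ATP5PF (0.23, adjusted p = 0.0875) were no longer called, while ATP5ME was, at 0.96 ± 0.12 (SE, adjusted p = 2.21e-05). The strand sums of ATP5ME were 61.2 and 76.3 CPM with crTet against 33.996 and 38.953 CPM with crNT.

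ATP5MK had 83.8 and 97.6 CPM with crTet against 59.5 and 74.0 CPM with crNT, a log2 fold change of 0.44 ± 0.10 (SE, edgeR adjusted p = 0.00492). ATP5F1E, the epsilon subunit of the central stalk, had 170 and 214 CPM with crTet against 143 and 152 CPM with crNT (0.38 ± 0.09, SE, edgeR adjusted p = 0.00848). Also called were ATP5PO, which joins the stalk to the head (0.79), ATP5MJ (0.28) and ATP5MC2, one of the genes for the c ring (0.23). ATP5PO had 6.83 and 13.01 CPM with crTet against 6.25 and 5.17 CPM with crNT. Without crTet replicate 2 its log2 fold change was 0.26. The ATP5PO call ended with strand sums (0.69, edgeR adjusted p = 0.0741) and with a replicate block in the fit (0.75, edgeR adjusted p = 0.0506). The alpha and beta subunits, the members with the highest CPM, had log2 fold changes of -0.13 each and were not called. ATP5F1B had 1315 and 1402 CPM with crTet against 1480 and 1494 CPM with crNT, and ATP5F1A 578 and 646 CPM with crTet against 670 and 673 CPM with crNT.

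In complex III, UQCRQ had 39.9 and 53.7 CPM with crTet against 26.7 and 26.6 CPM with crNT. This was a log2 fold change of 0.81 ± 0.12 (SE, edgeR adjusted p = 7.1e-05). With strand sums it had 170 and 198 CPM with crTet against 147 and 151 CPM with crNT, so the size shrank to 0.35 ± 0.08 (SE, adjusted p = 0.00916) and the call held. UQCRB, which sits near the ubiquinone site, had 149 and 170 CPM with crTet against 115 and 118 CPM with crNT (0.46 ± 0.08, SE, edgeR adjusted p = 0.000509). It stayed called with strand sums at 0.29 ± 0.08 (SE, adjusted p = 0.0209). The large core proteins UQCRC1 and UQCRC2, CYC1 and the Rieske protein UQCRFS1 had log2 fold changes between -0.08 and 0.03 and were not called.

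In complex IV, COX6C had 51.3 and 67.7 CPM with crTet against 42.2 and 40.9 CPM with crNT, a log2 fold change of 0.52 ± 0.11 (SE, edgeR adjusted p = 0.00355). COX6A1 had 11.1 and 15.3 CPM with crTet against 6.46 and 8.17 CPM with crNT (0.85 ± 0.19, SE, edgeR adjusted p = 0.00474). COX6B1, which faces cytochrome c, had a log2 fold change of 0.32 ± 0.09 (SE, edgeR adjusted p = 0.0325). No other complex IV member was called, while 11 of the 14 tested were positive. Among the members without a call were COX4I1 (0.09), COX5A (0.19), COX7C (0.21) and COX8A (0.52, edgeR adjusted p = 0.0507). The largest fitted fall of any member was that of NDUFA4L2 (log2 -1.01 ± 0.61, SE, not called), with 141 reads in all libraries.

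In complex I the 9 called were accessory subunits. NDUFS6 had 79.4 and 101 CPM with crTet against 64.8 and 65.7 CPM with crNT, a log2 fold change of 0.46 ± 0.10 (SE, edgeR adjusted p = 0.00381). NDUFA3 had 59.6 and 71.5 CPM with crTet against 48.0 and 47.2 CPM with crNT (0.46 ± 0.10, SE, edgeR adjusted p = 0.00532). NDUFB10 had 230 and 260 CPM with crTet against 191 and 202 CPM with crNT (0.32 ± 0.08, SE, edgeR adjusted p = 0.00901). The others were NDUFB1 (0.50), NDUFB2 (0.49), NDUFC1 (0.38), NDUFB4 (0.32), NDUFV3 (0.30) and NDUFS5 (0.29). Strand sums ended the calls of NDUFB2 (0.11, edgeR adjusted p = 0.614) and NDUFC1 (0.33, edgeR adjusted p = 0.0542), while the other complex I calls held. The core subunits NDUFS1, NDUFS3, NDUFS7, NDUFS8, NDUFV1 and NDUFV2 had no call. NDUFV2 had the largest fitted rise (1.05 ± 0.85, SE), again on few reads. In complex II, SDHA (0.67 ± 0.45, SE), SDHD (0.14), SDHB (0.05) and SDHC (-0.08) were not called.

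**Figure D4:**
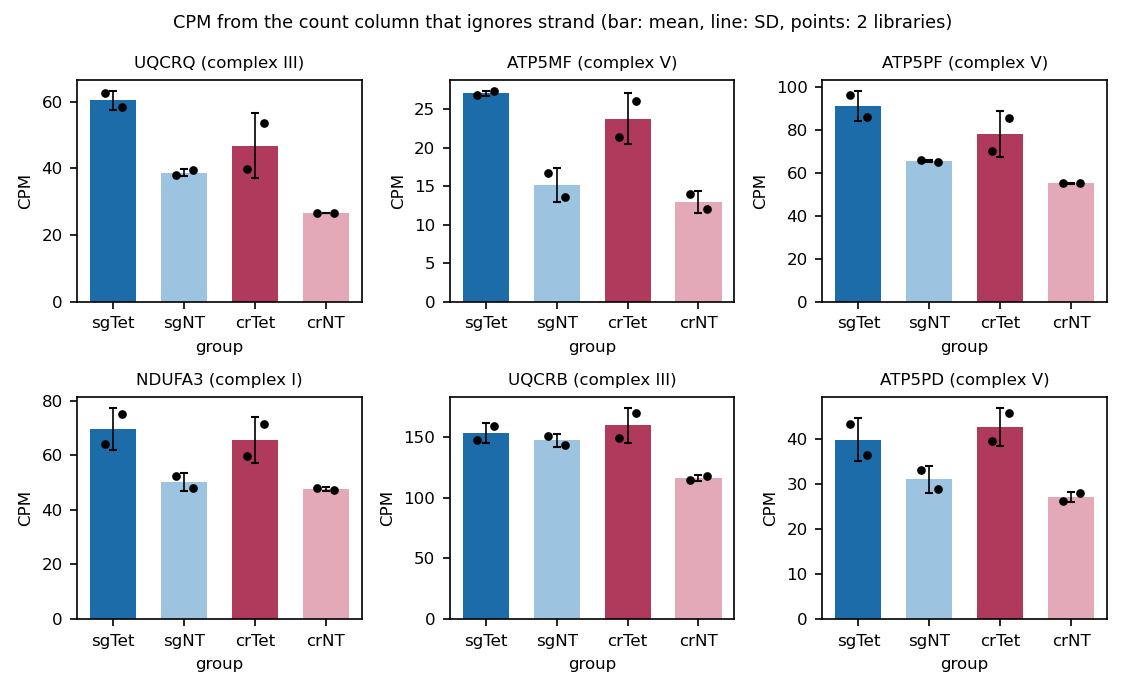
CPM (y, from 0) of 6 called members in the 4 groups (x), with bars for means, lines for SD and points for the 2 libraries. UQCRQ, ATP5MF, ATP5PF and NDUFA3 stand higher with both Tet guides than with their controls, whereas UQCRB had 147 and 159 CPM with sgTet against 151 and 144 CPM with sgNT.

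The dCas12a-VPR count was 4 without crTet replicate 2 (1.91% of all genes higher), 5 without crNT replicate 1 (0.554%) and 9 without crNT replicate 2 (1.21%). It was 32 without sgTet replicate 1 (5.96%) and 32 without sgTet replicate 2 (5.91%). UQCRQ, ATP5MF, UQCRB and ATP5PD were called in all 8 fits that left out 1 library, and the other 18 lost their call without crTet replicate 2. The median over members was 0.09 without crTet replicate 2 and 0.29 without crTet replicate 1. The share of unmapped reads, higher in both crNT libraries, and the sum of the HEK293 markers, lower in both, moved with this comparison, and their part was not tested.

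With crTet, called members were found in each range of annotated mRNA length, which is rough where a gene's transcripts differ much in length. Under 1000 bases of mRNA, 15 of 43 members (34.9%) were higher with crTet, against 4.93% of all 1765 genes of that length, with medians of 0.25 for members and 0.16 for all genes. From 1000 to 2000 bases 4 of 23 were called, against 3.21% of all genes, and from 2000 bases 3 of 15, against 3.501%. Those 3 were ATP5F1E, UQCRB and NDUFV3, and the part of long alternative transcripts in their lengths was not tested. With dCasMINI-VPR all 6 calls were under 1000 bases, 6 of 43 members (13.95%), against 1.70% of all genes of that length. Calls among all genes were also most frequent there, with 0.435% higher from 1000 to 2000 bases and 0.245% from 2000 bases. By level, 6 of 13 members between 10 and 50 CPM were called with crTet (median 0.49), where 4.11% of all genes were higher. Between 50 and 150 CPM 10 of 24 were called (median 0.21), where 5.58% of all genes were higher. From 150 CPM upwards 5 of 31 were called (median 0.09), where 9.53% of all genes were higher. Under 10 CPM 1 of 13 was called, where 1.03% of all genes were higher. With the trend on mRNA length and GC content removed, the crTet count was 15 higher and 2 lower (ATP5F1B and SDHC). In that fit 3.61% of all genes were higher and 4.43% lower, with medians of 0.09 for members and -0.015 for all genes.

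**Figure D5:**
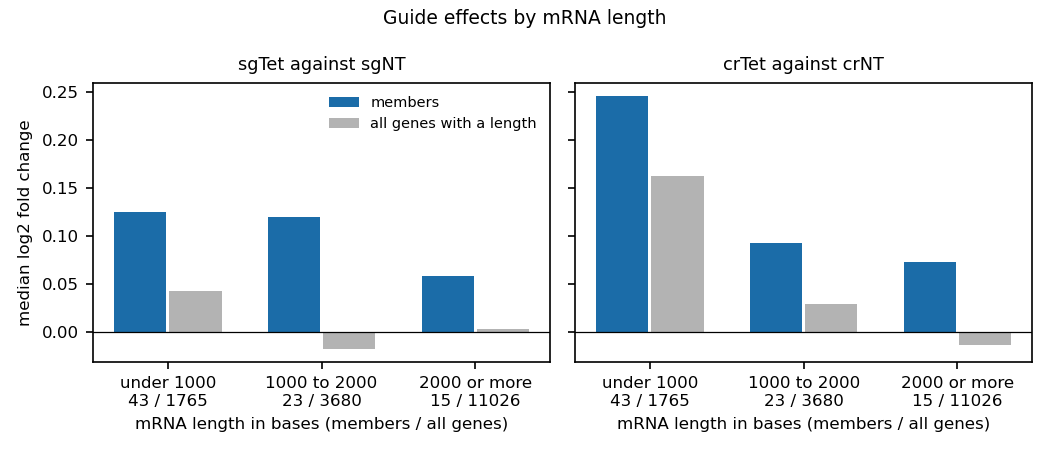
Median log2 fold change (y) of members and of all genes with a length, by mRNA length in bases (x, with the number of members and of all genes), sgTet against sgNT on the left and crTet against crNT on the right. Members under 1000 bases had medians of 0.13 and 0.25, against 0.04 and 0.16 for all genes of that length.

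Both Tet guides called 4 of the same members, ATP5MF, ATP5PF, NDUFA3 and UQCRQ, which are 66.7% of the 6 calls with dCasMINI-VPR and 18.2% of the 22 with dCas12a-VPR. The guide pairs use different libraries but 1 estimate of the spread. Over all genes, 25 were higher in both, which are 32.1% of those higher with sgTet and 4.22% of those higher with crTet. The difference of the guide effects was tested itself (sgTet effect minus crTet effect), and 0 members were called, against 0.506% of all genes higher and 0.843% lower. At an unadjusted p under 0.05 there were 10 of 81 members, a smaller share than the 2637 of 16606 genes, and DESeq2 called 1, UQCRB. The median difference was -0.09, against -0.01 over all genes. Without sgTet replicate 2, 15 members were lower and 1 higher, in a fit that called 5.56% of all genes lower and 4.82% higher. Without crTet replicate 1 UQCRB alone was lower (0.436% of all genes).

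Between the constructs, the mean of sgTet and sgNT was set against the mean of crTet and crNT. Higher with dCasMINI-VPR were 4 of 81 members (4.94%) and lower 0, against 4.83% of all genes higher and 5.2% lower, so the share was near the background. UQCRQ had a log2 difference of 0.45 ± 0.08 (SE, edgeR adjusted p = 0.000276) and NDUFA5, a complex I subunit, of 0.23 ± 0.06 (SE, edgeR adjusted p = 0.00686). ATP5PF (0.24, adjusted p = 0.0216) and ATP5MC1, a gene for the c ring (0.22, adjusted p = 0.0279), were the others. With strand sums UQCRQ (adjusted p = 0.413) and ATP5PF (adjusted p = 0.304) were not called. The count was 11 without sgTet replicate 1 (5.57% of all genes higher) and 9 without crTet replicate 2 (3.11%). It was 2 without crTet replicate 1 (3.76%), sgNT replicate 1 (3.13%) or sgNT replicate 2 (1.92%), and 1 without crNT replicate 1 (2.12%). Without sgTet replicate 2, 4 members were lower (COX5B, NDUFA1, NDUFV1, UQCRH), with 7.08% of all genes lower, and any batch that goes with a construct cannot be told apart from it. NDUFA13 had the largest fitted difference upwards (0.65) and NDUFV2 downwards (-1.24), neither called and both on few reads.

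Other genes of the pathway were read from lists. Of the 13 mRNAs made inside mitochondria, whose products join complexes I, III, IV and V, 8 were higher with crTet and 0 lower. Over all genes 3.56% were higher and 2.75% lower, and the median log2 fold change of the 13 was 0.55. MT-ND3 had 819 ± 118 CPM with crTet against 559 ± 18.8 CPM with crNT (SD, n = 2 each, edgeR adjusted p = 9.05e-05). With sgTet, MT-ND3 (0.57, edgeR adjusted p = 7.93e-05) and MT-CO3 (0.38, edgeR adjusted p = 0.0022) were higher and the median was 0.38. These counts changed with the library left out, as did the share of all genes called. The crTet count was 1 without crTet replicate 2 or crNT replicate 1, 3 without crTet replicate 1 or crNT replicate 2, and 12 without either sgTet library. The sgTet count was 12 without sgTet replicate 2, 4 without either crNT library, and 1 without sgNT replicate 1.

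Of 18 complex I assembly factors only NDUFAF3 was called in a guide comparison, with 76.5 ± 7.82 CPM with crTet against 49.1 ± 2.65 CPM with crNT (SD, n = 2 each, log2 fold change 0.64, edgeR adjusted p = 9.05e-05). It was called in all 8 fits that left out 1 library. HIGD2A, from the 23 tested complex IV assembly factors, was higher with sgTet (0.42, adjusted p = 0.0476) and with crTet (0.38, adjusted p = 0.0287). Both HIGD2A calls ended with strand sums (edgeR adjusted p = 0.905 and 0.0907). The sgTet call also ended with either other scaling (edgeR adjusted p = 0.0527 and 0.0891) and with its construct alone (0.149). It ended without any 1 of the crTet, crNT or sgNT libraries, at log2 fold changes of 0.38 to 0.46. The crTet call also ended with the length and GC trend removed (0.18, edgeR adjusted p = 0.310). Without any 1 crTet or crNT library it ended too, at 0.36 to 0.39. The factors for complexes II (4 genes) and III (6), for ATP synthase (6), and the 15 genes of cytochrome c and coenzyme Q had 0 calls in either guide comparison.

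Among 20 regulators, SLIRP, which binds mitochondrial mRNAs, was higher with sgTet, 103 ± 5.69 CPM against 70.9 ± 3.46 CPM with sgNT (SD, n = 2 each, log2 fold change 0.54, edgeR adjusted p = 0.00094). It was also higher with crTet (0.41, adjusted p = 0.00574), together with CLUH (0.35, adjusted p = 0.00262), which binds mRNAs of nuclear mitochondrial genes, and the coactivator PPARGC1B (0.42, adjusted p = 0.0445). With sgTet the SLIRP call ended without sgNT replicate 2 (adjusted p = 0.0786). With crTet the calls of SLIRP, CLUH and PPARGC1B each ended without crNT replicate 1 and without crNT replicate 2, at log2 fold changes of 0.42 and 0.41 for SLIRP, 0.34 and 0.36 for CLUH, and 0.32 and 0.53 for PPARGC1B. SLIRP was also not called without crTet replicate 2 (0.29, adjusted p = 0.172) or with strand sums (0.28, adjusted p = 0.055). PPARGC1B was not called without either crTet library or either sgNT library. Of 18 tricarboxylic acid cycle and pyruvate dehydrogenase genes, PDHA1 alone was higher with crTet (0.25, adjusted p = 0.0334), a call that ended without any 1 of the crTet, crNT or sgNT libraries. Ribosomal proteins, also short and abundant mRNAs, gave 19 of 83 cytosolic and 5 of 76 mitochondrial genes higher with crTet, with medians of 0.17 and 0.13. With sgTet 4 of 83 and 1 of 76 were higher, with medians of 0.09 and 0.08. Over all genes 3.56% were higher with crTet and 0.47% with sgTet. Without crNT replicate 1 the crTet counts were 2 cytosolic and 0 mitochondrial, without crTet replicate 2 they were 6 and 1, without crNT replicate 2 they were 9 and 2, and without either sgTet library they were 37 and 17. The sgTet counts were 1 and 0 without sgNT replicate 1, 0 and 0 without sgNT replicate 2, and 10 and 8 without sgTet replicate 2. The share of all genes called also changed with the library left out. The crTet median of the cytosolic list matched that of the respiratory subunits to 2 decimals. No gene of these lists was called lower in a guide comparison, and no difference between the lists and the members was tested.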

How the data were processed

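Per the submitters' processing notes, reads were aligned to hg38 with STAR; the version and gene annotation are not given in the sources used here. The authors deposited raw counts of reads per gene in 3 columns per library, and column 2, which ignores strand, was used. Library sizes and tests exclude the 4 total rows, which name no gene. Unmapped reads were 8.32% to 14.4%, multimapping reads 3.54% to 5.64%, reads in no feature 1.46% to 2.23% and ambiguous reads 10.4% to 11.2% of the sum of all rows. Symbols, positions and mRNA lengths came from GENCODE release 29, which placed 58361 of the 60652 rows. Promoters came from RefSeq.

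Counts of all 8 libraries were fitted with edgeR 4.0.16 in R 4.3.3 (quasi-likelihood, robust, TMM factors, filter by group, a mean for each of 4 groups; 16606 genes tested). The biological coefficient of variation was 8.04%; residual degrees of freedom were 4. Tests were two-sided, and SE is the log2 fold change over the square root of F. CPM use TMM-adjusted library sizes, and CPM of strand sums use plain totals. Where a group keeps 1 library, its spread is taken from the remaining groups. The method was tested on simulated data. The 16 alternatives were DESeq2 1.42.0, other scaling (2), no filter, strand sums, a replicate block, a length and GC trend, each construct alone, and each library left out.

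Named were called members (up to 12 per comparison by adjusted p), the 2 highest and the lowest per complex, isoform pairs, complex II, CYC1, extremes, EGFP and up to 4 called genes per list. Further called members, members named for strand ratios, replicate gaps or absence of a call, COX5A, COX7C and GABPA were chosen after their values were seen. The members and lists were chosen with earlier results of these data known. The values of 1 member are not reported here. Floors cover counting error only, while SE and SD hold the spread between these libraries.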

Additional observations from a re-analysis of the deposited data

Results flagged for a closer look

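Genes from the lists around the subunits differed in their response to the guides between the constructs in 2 cases, by the edgeR test of the difference itself. These were 1 of 20 regulators and 1 of 83 tested cytosolic ribosomal protein genes, and every other list had no call. LRPPRC, which stabilises mitochondrial mRNAs with SLIRP, had a log2 fold change of 0.23 with sgTet (382 ± 48.9 CPM against 326 ± 11.5 CPM with sgNT, SD, n = 2 each) and of -0.18 with crTet (317 ± 8.48 CPM against 359 ± 2.34 CPM with crNT, SD, n = 2 each). The difference was 0.41 ± 0.11 (SE, edgeR adjusted p = 0.0461). In the fits that left out 1 library it was called only without sgTet replicate 2, and it was 0.37 without sgNT replicate 2. The call also ended with strand sums (0.41, edgeR adjusted p = 0.0677) and with library size alone (0.40, edgeR adjusted p = 0.0548).

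RPL30, a cytosolic ribosomal protein gene, had a difference of -0.66 ± 0.17 (SE, edgeR adjusted p = 0.0498), with 80.1 ± 9.48 CPM with crTet against 52.8 ± 1.08 CPM with crNT (SD, n = 2 each). With strand sums it was -0.14 (edgeR adjusted p = 0.536), and with the length and GC trend removed -0.50 (edgeR adjusted p = 0.159). With RLE factors, another scaling, it was -0.66 (edgeR adjusted p = 0.0508) and not called. Without crNT replicate 1 or 2, crTet replicate 2, or sgNT replicate 1 or 2, it was not called. Over the 16606 genes tested, 84 were called higher (0.506%) and 140 lower (0.843%) in this difference.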

How the results depend on the processing

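With the length and GC trend removed, 1 member, SDHC, was lower with sgTet (0.482% of all genes lower) and 2 were lower with crTet (4.43%). In the difference of guide effects 1 member was lower (0.638% of all genes), and the median difference was 0.0087. In the construct difference 11 members were higher, where 9.48% of all genes were higher. DESeq2 and the fit with no filter each called 1 member lower in the difference, where 1.02% and 0.961% of all genes were lower. With strand sums UQCR10 turned to -0.019 with sgTet, and the mean shares of gene reads were 0.0369% for complex II, 0.1776% for III, 0.2012% for IV and 0.399% for V. Strand sums kept 3 of the 6 sgTet calls and 17 of the 22 crTet calls.

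Leaving out 1 library gave 1 to 13 members higher and 0 to 6 lower with sgTet, 4 to 32 higher and 0 lower with crTet, 0 to 1 higher and 0 to 15 lower in the difference, and 1 to 11 higher and 0 to 4 lower between constructs. Medians ranged between 0.0528 and 0.1621 with sgTet, 0.0874 and 0.2875 with crTet, -0.1855 and 0.0431 in the difference, and 0.0212 and 0.1052 between constructs. The share of all genes called also changed with the library left out, and the cause was not tested.

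Over 16606 genes, deviations of replicate 1 were nearly uncorrelated between groups (correlations -0.016 to 0.049). This cannot show whether replicate numbers pair the samples, and the labels do not say how replicates were made. With the replicate block, 6 members were higher with sgTet (0.536% of all genes), 21 with crTet (4.11%), 0 in the difference (0.801%) and 5 between constructs (5.31%). Library size alone lowered the medians to 0.0558 and 0.1346. Depth limits COX6A2, COX7B2 and COX8C, whose 0 counts allow up to 0.172 CPM.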
